A study of Mus musculus with 4 samples.

Results

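The 10 genes described here encode feedback inhibitors of the mitogen-activated protein kinase (MAPK) pathways. They are 6 dual-specificity phosphatases (Dusp1, Dusp2, Dusp4, Dusp5, Dusp6 and Dusp10), the Sprouty genes Spry1 and Spry2, and the Sprouty-related genes Spred1 and Spred2. They were taken by gene symbol, and all 10 were found among the 23420 rows of each count file. The RNA came from mouse large pre-B cells kept as a line of genotype Irf4/8-/-, so the transcription factors Irf4 and Irf8 are absent by genotype from every library. The line was transduced with a retrovirus that made green fluorescent protein and a hairpin directed at Myb (shMyb) or at luciferase (shLuc), kept for 72 hours with 10 ng/ml interleukin 7, and sorted for fluorescence. Each group had 2 libraries. They came from duplicate sets of 12 wells of the same line, and the p-values therefore rest on how far duplicate transductions differ, not on different lines or animals. The cells were grown on OP9 stromal cells, a feeder layer.

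In these pathways a receptor activates Ras, Ras activates the kinases RAF, MEK and ERK in turn, and related cascades end in the kinases JNK and p38. The DUSP phosphatases remove phosphate from active MAP kinases, and each enzyme has its own preference among ERK, JNK and p38 and its own place in the nucleus or cytoplasm. Sprouty and Spred proteins act upstream, where they hold back the activation of Ras and RAF below receptors. Many of these genes are themselves transcribed in response to ERK activity, which makes them a negative feedback. In pre-B cells, signals from the pre-B cell receptor and from the interleukin-7 receptor reach ERK.

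Each library held between 36573743 and 44682954 counts in total, and the members together had 8219 to 9108 of them. Levels are TMM-scaled CPM, that is, read counts relative to library size. A gene with a count of 0 may have a level of up to 3 counts, or 0.0689 to 0.0799 CPM depending on the library, a bound on counting error only. Genes were tested with edgeR's quasi-likelihood test, with Benjamini-Hochberg adjustment over 12610 tested genes and a threshold of 0.05 on the adjusted p. Myb, the gene the hairpin was directed at, was not lower. It was at 616 and 600 CPM in shLuc, against 617 and 639 CPM in the libraries labelled shMyb, a log2 fold change of 0.046 (SE 0.037, 95% interval -0.03 to 0.12, adjusted p = 0.283), and it was called higher when library totals alone set the scale (0.11, adjusted p = 0.0109). Every direction below therefore compares libraries by label, and no reduction of Myb RNA was seen that it could be tied to. Gm26577, on the opposite strand, shares 559 bases with the exons of Myb. The strand setting of the counting is not given in the sources used here. Genes of the B lineage such as Cd79a, Igll1 and Vpreb1 were at 641 to 1057 CPM over the 4 libraries. All 13 genes of that list, not all of them particular to large pre-B cells, had counts in every library. They did not stay level: 6 rose, among them Cd79a (0.22), and 6 fell, among them Igll1 (-0.37), Vpreb1 (-0.29), Il7r (-0.52) and Dntt (-0.89). Their summed level was 7511 and 7660 CPM in shLuc, against 6997 and 6878 CPM in the libraries labelled shMyb. Most of this difference came from Dntt alone, at 1249 and 1290 CPM in shLuc, against 685 and 681 CPM in the libraries labelled shMyb. The sum is therefore not read as a level of large pre-B cells. Whether these changes have a part in the member values was not tested.

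Among the 10 members, 5 rose in the libraries labelled shMyb (Dusp2, Dusp6, Dusp10, Spred1 and Spred2), 2 fell (Dusp5 and Spry1), 2 did not pass the test (Dusp1 and Spry2) and Dusp4 was too low to be tested. The calls took in 77.8% of the 9 tested members, while across all tested genes 62.2% were called. For rises the shares were 55.6% of tested members and 30.6% of all tested genes, and for falls 22.2% and 31.7%. Tested members had a median log2 fold change of 0.18, and all tested genes one of 0.0048. Most changes were small. Only Spry1 and Spred2 among the members were called with a change of at least 1.5-fold, which is 22.2% of those tested, and 17.4% of all tested genes were. In bulk RNA, fewer cells of a type and less RNA per cell cannot be told apart. All 9 tested members had no overlap between the groups, as did 82.1% of all tested genes.

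**Figure D1:**
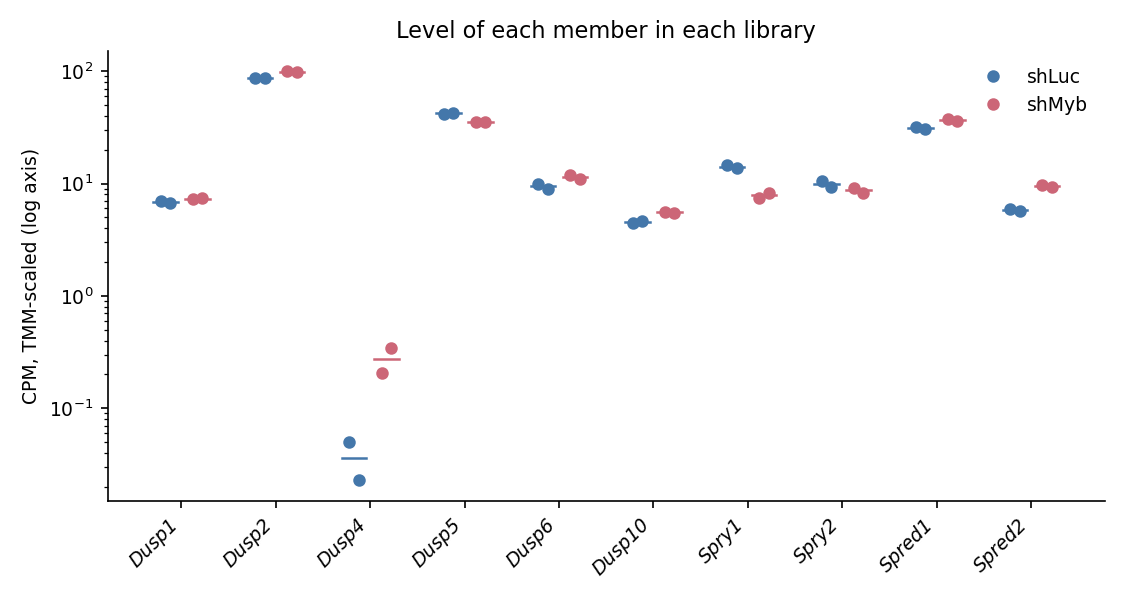
Level of each of the 10 members in each library, in TMM-scaled CPM on a log axis. Points are libraries, short lines are means of 2 libraries. Dusp2 was at 86.5 to 99.9 CPM, Dusp4 stayed below 0.35 CPM, and among the 9 tested members the widest gaps between groups were those of Spry1, which fell, and Spred2, which rose.

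The tested members that moved furthest belong to the Sprouty and Spred families, which act at the level of Ras and RAF. Their promoter sequences are shown with those of Dusp5, the phosphatase that fell, and of Dusp2, the most abundant member, because these 4 genes went in different directions. Each is the stretch before the start of transcription in RefSeq (GRCm38.p6), 5′ to 3′ on the gene's own strand, stopping where an exon of the same gene begins in GENCODE M21. All bases printed for Spry1 and for Dusp5 lie in exons of other genes in GENCODE M21. Capitals mark matches to the motifs named after the sequences. The positions are chr3:37639697-37639946 (plus strand) for Spry1, chr11:19924192-19924374 (plus strand) for Spred2, chr19:53528895-53529108 (plus strand) for Dusp5 and chr2:127335909-127336158 (plus strand) for Dusp2.
Spry1: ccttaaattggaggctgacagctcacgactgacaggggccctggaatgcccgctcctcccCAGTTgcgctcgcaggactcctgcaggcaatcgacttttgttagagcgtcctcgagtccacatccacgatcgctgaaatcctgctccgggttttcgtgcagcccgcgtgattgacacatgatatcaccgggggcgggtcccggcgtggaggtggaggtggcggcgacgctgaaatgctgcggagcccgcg
Spred2: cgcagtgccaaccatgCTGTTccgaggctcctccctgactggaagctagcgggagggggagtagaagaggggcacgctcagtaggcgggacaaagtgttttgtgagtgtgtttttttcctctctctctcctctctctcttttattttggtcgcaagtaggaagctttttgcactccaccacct
Dusp5: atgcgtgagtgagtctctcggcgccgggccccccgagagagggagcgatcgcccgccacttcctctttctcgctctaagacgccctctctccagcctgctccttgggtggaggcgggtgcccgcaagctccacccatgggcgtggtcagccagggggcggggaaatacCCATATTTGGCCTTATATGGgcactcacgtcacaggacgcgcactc
Dusp2: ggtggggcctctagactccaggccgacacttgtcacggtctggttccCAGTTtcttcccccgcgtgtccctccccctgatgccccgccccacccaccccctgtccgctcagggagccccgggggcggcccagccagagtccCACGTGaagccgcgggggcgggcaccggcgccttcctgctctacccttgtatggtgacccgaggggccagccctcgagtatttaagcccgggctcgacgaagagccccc
The search covered the 250 bases before the RefSeq start on both strands, for 9 members (Dusp4 not among them) and for all 32851 promoters of the table. The core of the MYB recognition site, AACNG, was present in 6 of 9 members (Dusp1, Dusp2, Dusp6, Spry1, Spred1 and Spred2), and 74.2% of all promoters held it. The CArG box, bound by serum response factor, was matched in Dusp5 alone, by 2 adjoining stretches that begin 82 and 72 bases before the start, and in 1.47% of all promoters. An E-box, CACGTG, was found in Dusp1 and Dusp2 (6.02% of all promoters), and the cyclic AMP response element TGACGTCA in Dusp1 (1.55%). The AP-1 site TGANTCA and the ETS motif CCGGAAG matched none of the 9 members, and 6.75% and 6.91% of all promoters. Only in Dusp1 did matches overlap, a pair of AACNG matches on opposite strands. Members that rose and members that fell both held an AACNG match, and the matches are letters in a window, not measured binding.

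Spry1 encodes an inhibitor of receptor tyrosine kinase signalling to Ras (chromosome 3, 37639947 to 37644598, plus strand, in GENCODE M21 on GRCm38, as for all coordinates below). It was at 14.5 and 13.8 CPM in shLuc, against 7.49 and 8.23 CPM in the libraries labelled shMyb. Both shLuc libraries were well above both others. The transcript fell by 0.85 on the log2 scale (SE 0.08, adjusted p = 4.4e-09), to 0.556 of the shLuc level. Only 3.09% of all tested genes had a lower log2 fold change. Under the 17 alternative settings the log2 value ran from -0.92 to -0.78, and the call was kept in each of them. An exon of Gm42922 on the opposite strand covers 710 bases of its exons, and the strand setting of the counting is not given in the sources used here.

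Spry2 has the same role (chromosome 14, 105891947 to 105896819, minus strand). It had 10.4 and 9.23 CPM in shLuc, against 9.06 and 8.31 CPM in the libraries labelled shMyb, so the lower shLuc library and the higher shMyb library nearly met. Spry2, at a log2 fold change of -0.18 (SE 0.09, 95% interval -0.37 to 0.01, adjusted p = 0.100), did not pass. It passed once the dependence of fold changes on abundance was removed (-0.24, adjusted p = 0.0265) and without shLuc replicate 2 (-0.27, adjusted p = 0.0414), and it was nearer 0 with the GC and length correction (-0.064, adjusted p = 0.567), with library totals alone (-0.11), without shLuc replicate 1 (-0.11) and without shMyb replicate 2 (-0.12). Summed over both Sprouty genes, the level was 24.9 and 23.0 CPM in shLuc, against 16.6 and 16.5 CPM in the libraries labelled shMyb. The counts of Spry1 were 1.39 and 1.49 times those of Spry2 in the shLuc libraries and 0.827 and 0.990 times in the libraries labelled shMyb. This ratio within a library does not depend on the scaling, and it was lower in both libraries labelled shMyb.

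Because the cells grew on a stromal feeder, stromal markers are given beside these genes. Of 14 stromal markers 13 were tested, of which 4 fell (Fn1, Bgn, Cxcl12 and Col6a1), 2 rose (Sparc and Postn) and 7 did not pass. Their summed level was 86.7 and 68.8 CPM in shLuc, against 59.1 and 66.5 CPM in the libraries labelled shMyb, ranges that did not overlap. The lower sum was not shared by the list as a set, as the tested markers had a median log2 fold change of -0.014. Fn1, the most abundant of these in shLuc, was at 22.7 and 18.6 CPM there, against 6.96 and 7.40 CPM in the libraries labelled shMyb. Col3a1 was higher in both libraries labelled shMyb than in either shLuc library but did not pass (log2 fold change 1.24, adjusted p = 0.160). Bgn, a matrix proteoglycan gene, was at 10.8 and 10.4 CPM in shLuc, against 4.39 and 4.23 CPM in the libraries labelled shMyb. Col1a1, the main fibroblast collagen gene, was at 15.0 and 11.2 CPM and at 12.7 and 14.8 CPM. Lum had no count in 3 of the 4 libraries and 2 counts in shMyb replicate 1. The part of these transcripts in the fall of Spry1 was not tested.

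The Spred genes moved the other way from Spry1. Spred2, which encodes a membrane-bound inhibitor of Ras-RAF signalling (chromosome 11, 19924375 to 20024026, plus strand), was at 5.91 and 5.74 CPM in shLuc, against 9.65 and 9.29 CPM in the libraries labelled shMyb. Each library labelled shMyb was above each shLuc library by a wide margin. The rise was 1.63-fold (log2 fold change 0.70, SE 0.10, adjusted p = 9.7e-07) and lay between 0.61 and 0.77 on the log2 scale over the 17 alternatives, all of which kept the call. Spred1, its close relative (chromosome 2, 117121374 to 117182279, plus strand), was the more abundant of the pair. It had 32.2 and 30.8 CPM in shLuc, against 37.2 and 35.9 CPM in the libraries labelled shMyb. The groups did not overlap. Spred1 rose by 0.22 on the log2 scale (SE 0.05, adjusted p = 6.8e-04). Against a null of 1.2-fold the Spred1 call was lost (adjusted p = 1).

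The counts of Spred2 were 0.184 and 0.186 times those of Spred1 in shLuc, against 0.259 times those of Spred1 in each library labelled shMyb. Summed over both genes, Spred transcripts went from 38.1 and 36.6 CPM to 46.9 and 45.2 CPM. Spry1 had 2.45 and 2.40 times the counts of Spred2 in shLuc, against 0.777 and 0.885 times in the libraries labelled shMyb, so the order of these 2 genes by counts was turned. With 2 libraries against 2, an exact two-sided permutation test of such a ratio cannot go below p = 0.333, and none is given. The within-library ratios show unequal change of the genes and not which gene moved.

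**Figure D2:**
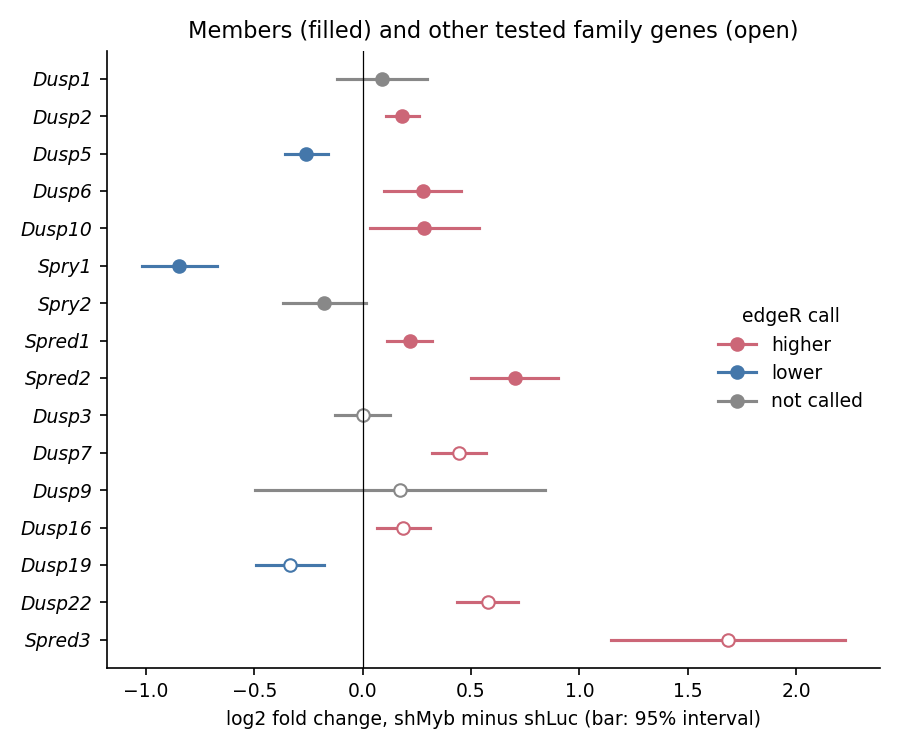
Log2 fold change of the 9 tested members (filled) and 7 other tested genes of the same families (open), shMyb minus shLuc, with unadjusted 95% intervals, coloured by edgeR call. The 3 Spred genes lie to the right of 0, Spry1 and Spry2 to the left, and the phosphatases on either side.

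Among the phosphatases, those of the nucleus are described before those of the cytoplasm. Dusp2, a nuclear phosphatase of blood cells (chromosome 2, 127336159 to 127338376, plus strand), was the most abundant member. It was at 87.7 and 86.5 CPM in shLuc, against 99.9 and 97.9 CPM in the libraries labelled shMyb. Replicates lay close together and the groups did not overlap. Dusp2 rose 1.14-fold (log2 fold change 0.18, SE 0.04, adjusted p = 1.7e-04), a call that was lost only against a null of 1.2-fold (adjusted p = 1) among the 17 alternatives.

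Dusp5 encodes a nuclear phosphatase that prefers ERK (chromosome 19, 53529109 to 53542431, plus strand). It was at 42.0 and 42.6 CPM in shLuc, against 35.6 and 35.0 CPM in the libraries labelled shMyb, where both values were the lower ones. Dusp5 fell by 0.26 on the log2 scale (SE 0.05, adjusted p = 4.4e-05), to 0.835 of the shLuc level. The call was lost only against a null of 1.2-fold (adjusted p = 0.617). An exon of AC137853.2 on the opposite strand covers 547 bases of its exons. In counts, Dusp5 stood at 0.479 and 0.492 times Dusp2 in shLuc, against 0.356 and 0.358 times in the libraries labelled shMyb.

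Dusp1, an immediate early gene whose product acts on p38, JNK and ERK (chromosome 17, 26505590 to 26562128, minus strand), was at 7.06 and 6.77 CPM in shLuc, against 7.34 and 7.38 CPM in the libraries labelled shMyb. The values barely separated. Dusp1 did not pass, at a log2 fold change of 0.09 (SE 0.10, 95% interval -0.12 to 0.30, adjusted p = 0.443), and it was -0.0083 once the dependence of fold changes on abundance was removed. Its exons share 11 bases with Ergic1 on the opposite strand. Dusp4, a nuclear phosphatase close to Dusp1 (chromosome 8, 34807297 to 34819894, plus strand), had 2 and 1 counts in shLuc, against 8 and 13 counts in the libraries labelled shMyb. That is 0.0501 and 0.0230 CPM against 0.205 and 0.346 CPM, and the shLuc values lay below the level of 3 counts. Pooled over a group, the ratio was 7.64 with an exact 95% interval of 2.28 to 40.0, which covers counting error only. Dusp4 did not pass the filter on low counts. With no such filter its edgeR adjusted p was 0.00347.

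Dusp6 encodes the cytoplasmic phosphatase of ERK (chromosome 10, 99263231 to 99267489, plus strand). It had 9.99 and 9.02 CPM in shLuc, against 12.0 and 11.0 CPM in the libraries labelled shMyb, a gap of about 1 CPM between the groups. The log2 fold change was 0.28 (SE 0.09, adjusted p = 0.00734). This call ended without shLuc replicate 2 (0.19), without shMyb replicate 1 (0.21), with DESeq2 (0.28, adjusted p = 0.0901) and against a null of 1.2-fold (adjusted p = 0.497). In counts Dusp6 stood at 0.238 and 0.212 times Dusp5 in shLuc, against 0.337 and 0.314 times in the libraries labelled shMyb.

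Dusp10, whose product acts on JNK and p38 (chromosome 1, 184013302 to 184075636, plus strand), had 4.46 and 4.61 CPM in shLuc, against 5.60 and 5.46 CPM in the libraries labelled shMyb. Each of the latter was above each shLuc library. Dusp10 passed at a log2 fold change of 0.28 (SE 0.12, 95% interval 0.03 to 0.54, adjusted p = 0.0447), close to the threshold. The call was lost under 12 of the 17 alternatives. Among these were leaving out any 1 of the 4 libraries (0.24 to 0.30), DESeq2 (adjusted p = 0.222), limma-voom (adjusted p = 0.0522) and the correction for abundance (0.14, adjusted p = 0.325). DESeq2 called 3 members higher, Dusp2, Spred1 and Spred2.

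Low-abundance genes were higher in general in the libraries labelled shMyb, and each member can be read against genes of its own level. The median log2 fold change was 0.10 over 820 genes from 5 to 10 CPM, -0.0092 over 2354 genes from 10 to 30 CPM and -0.04 over 3731 genes from 30 to 100 CPM. Up to 0.5 CPM, where the untested Dusp4 lay, the median was 0.60 over 944 tested genes. Spred2 lay above the median of genes from 5 to 10 CPM and Spry1 below that of genes from 10 to 30 CPM. With this dependence on abundance corrected, Dusp2, Dusp6, Spred1 and Spred2 kept the call as higher and Dusp5 and Spry1 as lower.

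**Figure D3:**
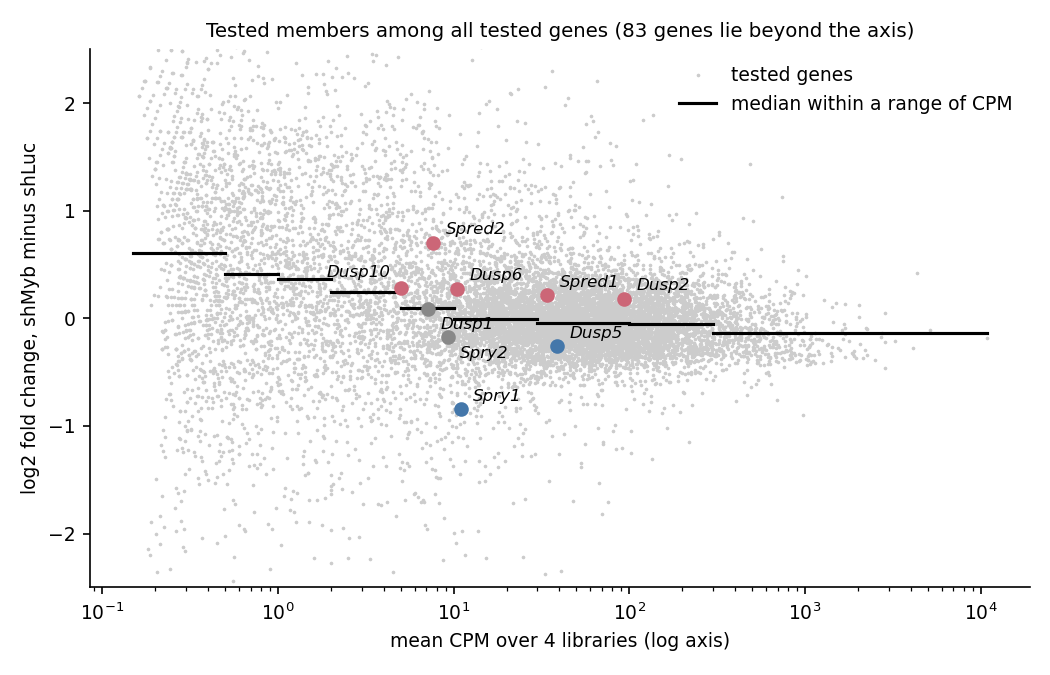
Log2 fold change (shMyb minus shLuc) against mean CPM over 4 libraries (log axis) for all tested genes in grey, with the 9 tested members coloured by call (red higher, blue lower, grey not called). Black steps are medians of all tested genes within ranges of CPM. They go from 0.60 up to 0.5 CPM to -0.13 above 300 CPM, and Spry1 and Spred2 lie farthest from the step at their level.

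Levels of different genes are compared per exon length, as RPKM, which divides CPM by the exon length in kilobases. In shLuc the order was Dusp2 (53.8 ± 0.509 RPKM, SD, n = 2), Dusp5 (17.1 ± 0.173), Spry1 (4.86 ± 0.175), Spry2 (4.71 ± 0.410), Spred1 (4.64 ± 0.139), Dusp6 (3.40 ± 0.244), Dusp1 (2.91 ± 0.0855), Dusp10 (1.62 ± 0.0401), Spred2 (1.31 ± 0.0268) and Dusp4 (0.0133 ± 0.0070). The levels of Spry1, Spry2 and Spred1 followed each other with overlapping libraries, and no other neighbours overlapped. In the libraries labelled shMyb, Dusp2 (61.2 ± 0.883 RPKM) and Dusp5 (14.3 ± 0.158) again came on top. Spred1 came next (5.39 ± 0.137 RPKM), ahead of Spry2 (4.16 ± 0.254) and Dusp6 (4.11 ± 0.250), whose libraries overlapped. Spry1 had gone from rank 3 to rank 7 (2.71 ± 0.179 RPKM), below Dusp1 (3.10 ± 0.0109). Spred2 (2.13 ± 0.0566 RPKM) stood just above Dusp10 (1.98 ± 0.0344), and Dusp4 was again last (0.101 ± 0.0364). Of the summed RPKM of the 10 members, Dusp2 made up 56.8% and 57.2% in shLuc, against 61.7% and 61.8% in the libraries labelled shMyb.

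**Figure D4:**
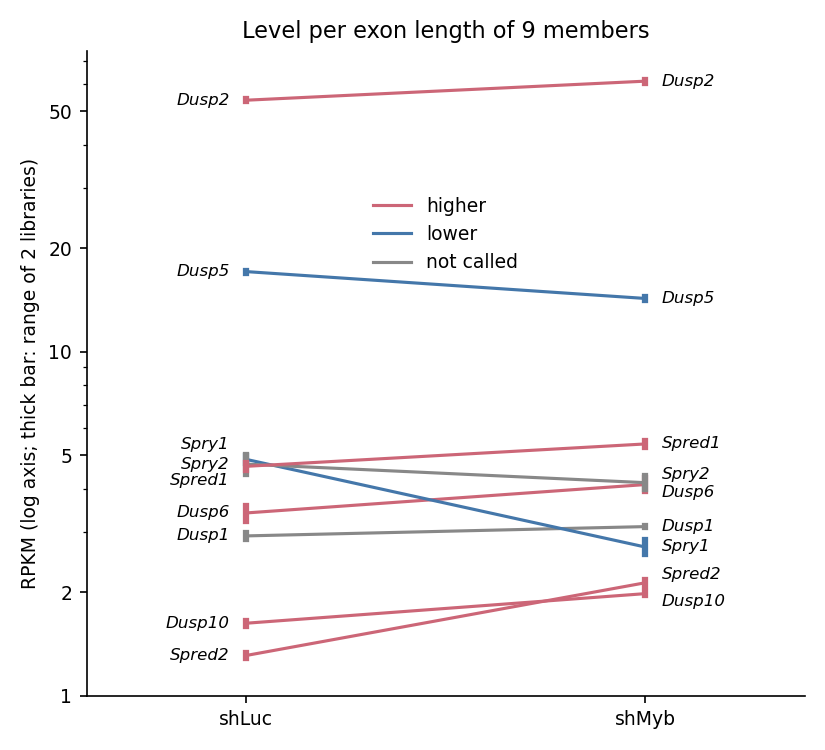
Level per exon length of 9 members in both groups, in RPKM on a log axis. Lines join the group means and thick bars span the 2 libraries of a group. Spry1 crosses Spred1, Spry2, Dusp6 and Dusp1 on its way from 4.86 to 2.71 RPKM, and Dusp2 stays on top. Dusp4, at 0.101 RPKM or less, is left out.

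A list of 11 further genes of these families, which is not the whole of the DUSP family, was also described. Of the 7 tested, 4 rose, 1 fell and 2 did not pass. Spred3, the third Spred gene, rose from 0.676 and 0.712 CPM to 1.87 and 2.61 CPM (log2 fold change 1.68, SE 0.26, adjusted p = 5.0e-06), on 27 and 31 counts in shLuc. Its exons share 202 bases with Ggn on the opposite strand. All 3 Spred genes were therefore called higher. Of the 630 tested genes with a mean from 1 to 2 CPM, 38.7% were called higher, at a median log2 fold change of 0.37. Dusp22, which encodes an atypical phosphatase linked to JNK, rose from 15.8 and 14.0 CPM to 21.6 and 22.8 CPM (0.58, SE 0.07, adjusted p = 9.5e-08). Dusp7, a cytoplasmic ERK phosphatase gene like Dusp6, rose from 20.9 and 21.7 CPM to 30.6 and 27.5 CPM (0.45, SE 0.06, adjusted p = 7.6e-07). Dusp16, whose product acts on JNK and p38, was at 24.9 and 22.6 CPM and at 27.0 CPM in each library labelled shMyb (0.19, SE 0.06, adjusted p = 0.00799).

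Dusp19 fell from 13.8 and 14.7 CPM to 11.5 and 11.1 CPM (log2 fold change -0.33, SE 0.08, adjusted p = 4.9e-04), although 131 bases of its exons are shared with Nup35 on the same strand. Dusp3 was level, at 19.1 and 19.8 CPM in shLuc, against 19.5 and 19.4 CPM in the libraries labelled shMyb (95% interval of the log2 fold change -0.13 to 0.13). Dusp9 was at 0.613 to 0.924 CPM and did not pass (adjusted p = 0.658). Dusp8, Dusp14, Spry3 and Spry4 were too low to be tested. Dusp8 had 7 and 20 counts over the groups, a ratio of 3.12 (exact 95% interval 1.27 to 8.73, counting error only), and Spry4 had at most 3 counts in any library.

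Upstream and downstream of the members, the wider pathway went both ways. Over 113 tested genes of 5 lists, which include the 7 family genes above, 43 rose, 29 fell and 41 did not pass, so 63.7% were called, beside 62.2% of all tested genes. The median log2 fold change was 0.08. Among genes between receptors and Ras, 10 of 28 tested rose and 4 fell. Rras2, a Ras-related GTPase gene, fell from 279 and 297 CPM to 167 and 162 CPM (log2 fold change -0.81, SE 0.04, adjusted p = 3.1e-15). Genes of Ras exchange factors, Rasgrp1 and Rasgrp3, rose by 0.61 and 1.09. The latter went from 6.51 and 5.76 CPM to 12.7 and 13.4 CPM. Rasal1, which encodes a GTPase-activating protein of Ras, fell by 0.54. It was the only one of 7 tested genes of such proteins in the list to fall. Of the others, whose values were seen before they were named, Rasa1 did not pass and 5 rose, by between 0.12 (Rasa3) and 0.58 (Dab2ip).

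In the RAF-MEK-ERK list 6 of 19 tested genes rose and 8 fell, at a median of -0.02. Ppp1cb, the phosphatase subunit that works with Shoc2 on RAF, fell from 701 and 708 CPM to 506 and 481 CPM (log2 fold change -0.51, SE 0.04, adjusted p = 1.8e-11). Pebp1, an inhibitor of RAF kinase, and Mapk6, an atypical MAP kinase, fell by 0.29 and 0.28, and Mapk7 rose by 0.37. In the JNK and p38 list 12 of 27 tested genes rose and 7 fell, at a median of 0.09. Map3k1, an upstream kinase of JNK, rose from 145 and 144 CPM to 198 and 203 CPM (0.47, adjusted p = 4.0e-11). Mapk8, a JNK gene, fell by 0.45, Map3k5 by 0.40 and Mapk11, a p38 gene, by 0.50.

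The list of the ERK response holds transcripts that follow ERK activity together with kinases and factors that act in that response, such as Rps6ka1, Elk1 and Srf. Of 32 tested genes 11 rose, 9 fell and 12 did not pass, with a median of 0.13. Rps6ka1, a kinase that ERK activates, rose from 24.2 and 24.3 CPM to 36.9 and 34.0 CPM (log2 fold change 0.55, SE 0.06, adjusted p = 5.0e-09), and Jun rose by 0.38. Myc fell by 0.57 and the nuclear receptor gene Nr4a1 by 0.46. The list's lowest log2 fold changes, looked up after the values were seen, were those of Fosl1 (-1.26, SE 0.34, adjusted p = 0.00228), an AP-1 gene with 14 to 48 counts per library, and of the cytokine gene Lif (-1.16, SE 0.16, adjusted p = 7.4e-07), which fell from 4.73 and 4.57 CPM to 2.21 and 1.94 CPM. The ETS factor gene Etv5, named after its values were seen because it is often read together with Dusp6, rose from 3.18 and 3.90 CPM to 6.21 and 5.27 CPM (0.69, SE 0.14, adjusted p = 1.2e-04). Egr1, Junb and Fos, immediate early genes, were also named after their values were seen. Egr1 (0.14, 95% interval -0.05 to 0.33) and Junb (0.07, 95% interval -0.02 to 0.16) did not pass. Fos rose by 0.29, close to the threshold (adjusted p = 0.0437).

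**Figure D5:**
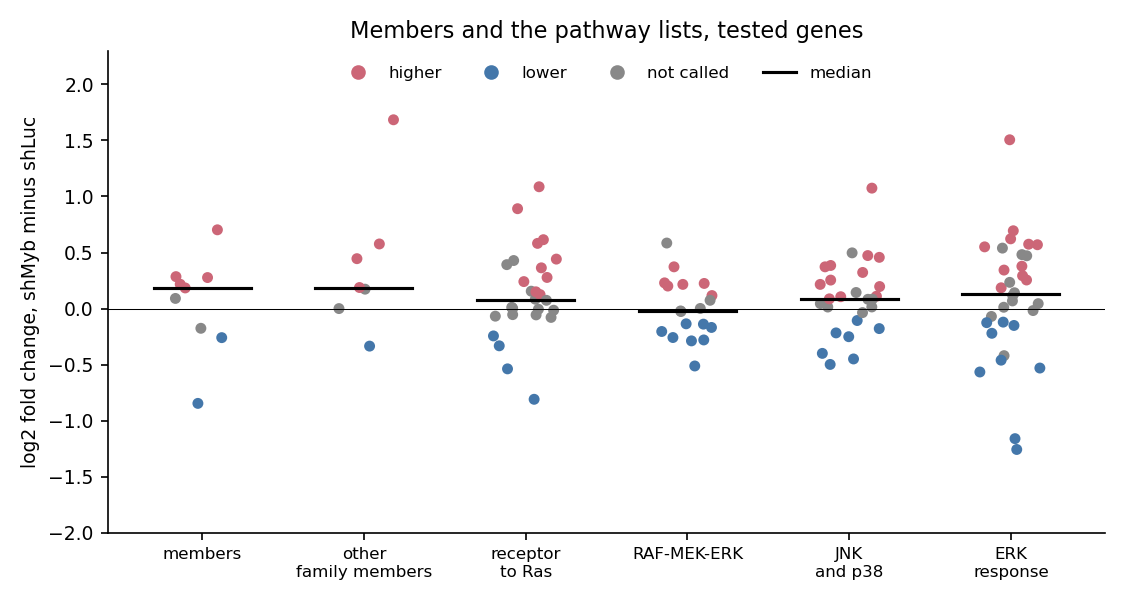
Log2 fold change (shMyb minus shLuc) of the tested genes in the member list and the 5 pathway lists. Each point is a gene, coloured by edgeR call, and black lines are medians. Every list holds genes called higher and genes called lower, and medians run from -0.02 in the RAF-MEK-ERK list to 0.19 in the list of other family members.

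Markers of other blood cells were counted as well. Of 14 myeloid markers 10 were tested, of which 7 rose and none fell. All 14 were at 3.30 CPM or lower in every library, and of all tested genes from 0.5 to 1 CPM 37.0% were called higher, from 1 to 2 CPM 38.7%. Their summed level was 7.81 and 6.01 CPM in shLuc, against 12.3 and 14.7 CPM in the libraries labelled shMyb, with Elane at 0 in all 4 libraries. The T and NK markers Cd4, Cd8a, Cd8b1 and Ncr1 were at 0 in all 4 libraries. Cd3e, Cd3d and Cd3g had at most 2 counts in any library. Of the 13 markers in that list 5 were tested, of which 3 fell, 1 rose and 1 did not pass. Cd2 was the riser, from 6.98 and 6.47 CPM to 11.3 and 11.7 CPM (log2 fold change 0.77). The summed level of that list was 131 and 134 CPM in shLuc, against 66.1 and 67.4 CPM in the libraries labelled shMyb. It came mostly from 2 genes that fell, Lat, at 96.2 and 99.1 CPM in shLuc, and Zap70, at 25.6 and 26.1 CPM. Lat was thus above every member in shLuc. The sum of the list mostly follows Lat and Zap70 and is not read as a measure of T or NK cells. Whether myeloid, T or NK cells contributed to the member values was not tested.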

How the data were processed

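For each of 4 RNA-seq libraries (2 shLuc, 2 shMyb, grouped by title) the authors deposited a file of unnormalized counts, with genes by symbol. FastQC, STAR, HTSeq, DESeq2 and mm10 were used per the submitters' processing notes, without versions or roles. The annotation, strand setting and filters were not given in the sources used here. Per file, 25 gene symbols had been turned into dates, which stayed in the totals. Of the other symbols, 21751 matched GENCODE M21 (GRCm38, 1-based coordinates) directly, 1259 matched by a former symbol and 383 had no match. Exon lengths are those of its basic transcripts.

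From the counts, genes were kept by filterByExpr (minimum count 10), scaled by TMM and tested with edgeR 4.0.16 (R 4.3.3, glmQLFit with robust=TRUE, glmQLFTest, group as the only term), with Benjamini-Hochberg adjustment over 12610 genes. A standard error is the log2 fold change divided by the square root of F. CPM and RPKM use TMM-scaled totals. The procedure was tested on simulated data. Members and lists were chosen with earlier results of these data known. Named were the members, Myb, the other family genes and up to 4 called genes with the smallest p per pathway list. Of the list entries, 1 was not analysed here, and Hras stands as Hras1. No set test was made. Alternatives were other scalings, filters, tools (DESeq2 1.42.0, limma 3.58.1), thresholds, a correction of the dependence of fold changes on abundance (loess), a replicate block and leaving out each library. A crossed block and a GC and length correction were added after seeing the data.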

Additional observations from a re-analysis of the deposited data

How the results depend on the processing

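Of 153 values of the 9 tested members under alternatives, 132 kept their side of the threshold, 19 lost a call, 2 gained one and none of the called values changed sign. The calls of Spry1 and Spred2 were kept under all 17. With DESeq2, 3 members were called higher. Against a null of 1.2-fold, 1 member was called higher and 1 lower, 16 pathway genes higher and 11 lower, and 3160 of all genes. When 1 library was left out, a group held 1 library, so effect sizes are given. The calls of Dusp6 and Dusp10 did not hold throughout. Log2 fold changes ran from 0.16 to 0.20 for Dusp2, 0.19 to 0.34 for Dusp6 and 0.24 to 0.30 for Dusp10. They ran from 0.18 to 0.24 for Spred1 and 0.67 to 0.73 for Spred2. For Dusp5 they were -0.29 to -0.25 and for Spry1 -0.92 to -0.78. Dusp1 (0.05 to 0.10) and Spry2 (-0.27 to -0.11) kept their signs. Those fits also test more genes. Dusp4 entered 3 of them, those that left out shLuc replicate 1, shLuc replicate 2 or shMyb replicate 1 (log2 fold changes 3.39, 2.37 and 3.16). Dusp4 passed the filter there through shMyb replicate 2, the library with its highest count (13). It was not tested without that library, so these values add no support for a rise. Myb ran from 0.018 to 0.066 over the fits with 1 library left out. It was called higher with library totals alone (0.11, adjusted p = 0.0109), with the abundance correction (0.16, adjusted p = 6.5e-04) and with the GC and length correction (0.093, adjusted p = 0.0351), and the cause was not tested. With library totals alone, 4667 genes were called higher and 3102 lower, beside 3855 and 3994 with TMM, and the same 7 members were called.

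Replicate numbers are shared between the groups, but the labels do not say that they pair the libraries. Same-numbered libraries deviated with a correlation of -0.19 across genes. With the replicate block 4 members were called higher and 2 lower, with Dusp10 lost (adjusted p = 0.0851), and 7341 of all genes. With the crossed pairing the counts were 5, 2 and 8593. Depth limits Dusp4, Dusp8, Dusp14, Spry3 and Spry4, with 24, 27, 22, 3 and 8 counts over the 4 libraries. Arms with 1 library left are assumed to vary like the other group.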
